A study of Mus musculus with 3 samples.

Results

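The genes described here encode the proteins of the mitochondrial ribosome. They were chosen by name: all array probes whose platform symbol was Mrpl (large subunit) or Mrps (small subunit) followed by a number, with the brightest probe over the 3 arrays standing for each gene. This gave 67 of the 17742 named genes, 43 Mrpl and 24 Mrps, from 76 probes. RNA came from a mouse myeloid leukaemia line of the BXH-2 strain, taken from bone marrow per the labels. The sensitive group was 2 arrays of the parental line B117P, which responds to cytarabine (Ara-C), a nucleoside drug that blocks DNA copying. The resistant group was a single array of B117HS, raised from B117P by stepwise exposure to the drug for about 10 weeks, with an IC50 about 10 times as high. Each group is 1 line, the labels do not say whether the parental arrays were separate cultures, and the p-values below therefore measure a spread that may be technical, with the single resistant array assumed to vary like the parental arrays.

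Mitochondria keep a small genome whose messages encode core subunits of the respiratory chain, and a dedicated ribosome inside the organelle translates them. Its RNAs are made from the mitochondrial genome, while all of its proteins are encoded in the nucleus, made in the cytosol and imported. Compared with its bacterial relatives this ribosome has less RNA and more protein: some of its proteins have bacterial counterparts, and others are found only in mitochondria. The small subunit reads the message and the large subunit joins the amino acids.

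Array brightness bears on every value that follows. Over 6167 bright probes (a mean of at least 500 intensity units over the arrays) the resistant array lay 0.76 log2 units below the parental mean, and median intensity over all probes was 58.4 and 72.5 on the parental arrays and 24.9 on the resistant array. Differences are therefore given on the deposited scale, as log2(intensity + 50) in resistant minus parental cells, and again after each array was scaled on its bright probes. A gene was called where the p from limma, adjusted by Benjamini-Hochberg over the whole table, was under 0.05 and the resistant array differed by at least 1 log2 unit from each parental array. "Fell" is used only of genes called lower on both scales. The myeloid marker Mpo (76710 and 84138 units in parental cells, 80905 in resistant cells) and Ptprc, carried by all white blood cells (8096, 8219 and 6725), were bright on all arrays. Other myeloid markers varied: Itgam read 1318, 2389 and 443 units, Cebpa 368, 582 and 961, and Cd33 was dim at 17.4, 73.9 and 17.1. The part of such differences in the values below was not tested. By contrast, the B-cell marker Ms4a1 stayed at or below 7.78. The T-cell marker Cd3e read 272, 223 and 90.2 units, and Spi1, a myeloid transcription factor, read 634, 591 and 109. In such bulk RNA, fewer cells of a type and less RNA per cell cannot be told apart.

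Mitochondrial ribosomal protein transcripts were lower in the resistant cells on the deposited scale. Bright genes at large were lower too, by a smaller median difference. The resistant array lay below both parental arrays for 61 of the 67 members, against 68.4% of all genes, and 28 members (41.8%) were called lower, against 18.5% of all genes and 35.2% of genes of at least 500 units. Among members of at least 500 units, 51 of 54 had a mean log2 difference below 0, against 3974 of 5318 genes of that brightness. No member was called higher in limma, and none was higher at an unadjusted p under 0.05, while 5.23% of all genes were called higher. The median difference was -1.01 over all members. Over the 54 members of at least 500 units, of which 26 (48.1%) were called lower, it was -1.04, against -0.74 over all genes of that brightness. The members' own spread between the parental arrays was small, with a median absolute log2 difference of 0.11.

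After scaling on bright probes the members were a mixed group. The scaled median was -0.29 over all members and -0.31 over those of at least 500 units, against -0.01 for all genes of that brightness, and 44 of 67 members still lay below both parental arrays, against 47.7% of all genes. Among members of at least 500 units 72.2% had a mean scaled difference below 0, against 50.7% of genes of that brightness. Only 5 members (7.46%) were called lower, next to 7.58% of all genes and 13.0% of those of at least 500 units, so the share of members called on this scale was no larger than the background. None was called higher after scaling, against 9.35% of all genes and 16.9% of the bright ones, although 9 members were higher and 24 lower at an unadjusted p under 0.05. Counts on both scales together were 5 fallen and 0 risen members, where 7.57% of all genes fell and 5.17% rose. The sign of many members depended on the scale: 61 were below 0 as deposited, 45 after bright-probe scaling, 52 with quantile-normalized arrays and 49 with arrays centred on their medians. With a floor of 50 units in place of the offset no member was called in limma, although 44 were lower at an unadjusted p under 0.05.

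**Figure D1:**
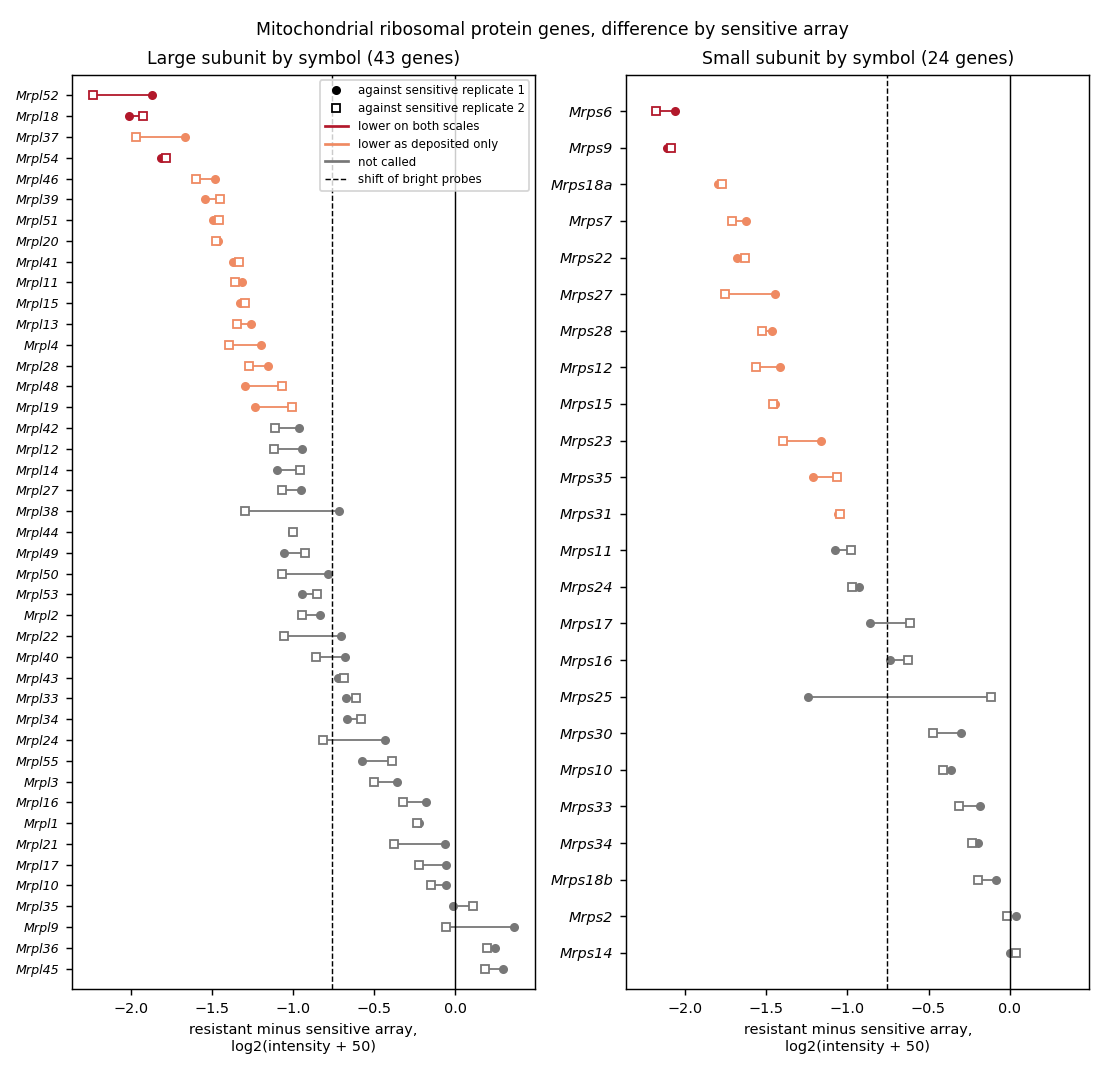
Difference of the resistant array from each parental array for every member, in log2(intensity + 50) as deposited; circles are against sensitive replicate 1 and squares against replicate 2, and the dashed line is the shift of bright probes. Members run from about -2 to just above 0 in both subunits, and the 5 members lower on both scales, in dark red, lie among the lowest of each panel.

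The members that fell were Mrps6, Mrps9, Mrpl52, Mrpl18 and Mrpl54. Mrps6, a small subunit protein with a bacterial counterpart, read 2978 and 3234 units on the parental arrays and 675 on the resistant array. Its log2 difference was -2.12 (SE 0.21, limma adjusted p = 7.10e-06) as deposited and -1.40 after scaling (adjusted p = 0.023). Mrps9, the counterpart of a bacterial protein of the small subunit head, read 1618 and 1592 units against 336. The resistant value lay far below both parental values, which differed little from each other, and the differences were -2.10 as deposited and -1.41 after scaling.

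Mrpl52, a large subunit protein found only in mitochondria, read 4406 and 5696 units in parental cells and 1170 in resistant cells. The parental arrays differed more for this gene, and its log2 difference was -1.87 from the first and -2.24 from the other, or -1.31 on average after scaling. Mrpl18 belongs to the central protuberance, a part of the large subunit that contacts the small one. Its intensities were 5401 and 5086 units against 1299, which is -1.97 on the log2 scale (SE 0.20, adjusted p = 9.50e-06 in limma) and -1.23 after scaling. Mrpl54, another protein found only in mitochondria, read 1695 and 1653 units against 445, or -1.82 and -1.78 log2 units from the parental arrays and -1.09 on average after scaling. By the call rule, the resistant value lies outside the parental pair for each of these 5 genes. Mrpl52 lost its call after quantile normalization, where its difference was -1.55.

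A further 23 members were called lower as deposited only. Nearest to a call on both scales were Mrpl37 (2805 and 3476 units against 849) and Mrps18a (5175 and 5090 against 1450). Mrpl37 is found only in mitochondria, Mrps18a belongs to the family of the bacterial protein S18, and both missed the size asked after scaling from 1 parental array, with log2 differences of -0.98 from sensitive replicate 1 for Mrpl37 and -0.99 from sensitive replicate 2 for Mrps18a. Of the small subunit, Mrps7 (-1.67), Mrps22 (-1.66), Mrps27 (-1.60), Mrps28 (-1.496) and Mrps12 (-1.49) followed on the deposited scale. Mrps7 and Mrps12 have bacterial counterparts at the mRNA path, with Mrps12 next to the decoding site, and Mrps27 carries RNA-binding pentatricopeptide repeats. After scaling, these 5 genes lay between -0.95 and -0.75. Of the large subunit, Mrpl46 (-1.54), Mrpl39 (-1.496), Mrpl51 (-1.48) and Mrpl20 (-1.47) followed. Mrpl20, the counterpart of a bacterial protein needed early in large subunit assembly, was bright on every array, at 14368, 14511 and 5188 units.

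Some members did not share the lower values on the deposited scale. Mrps2, a small subunit protein with a bacterial counterpart, read 1214 and 1261 units in parental cells and 1249 in resistant cells, so that the resistant value lay between the others (log2 difference 0.01, SE 0.21, limma adjusted p = 0.97). Mrps14 (125, 121 and 126 units) and Mrps18b (360, 393 and 338) differed by 0.02 and -0.14. In the large subunit the values nearest to no difference as deposited were those of Mrpl35 (80.8 and 69.9 units against 79.3), Mrpl10 (1111 and 1188 against 1067) and Mrpl17 (149 and 174 against 142). After scaling, Mrps2, Mrps14 and Mrps18b stood at 0.74, 0.58 and 0.53 without a call. Mrpl35, Mrpl10 and Mrpl17 stood at 0.52, 0.63 and 0.44, also without a call. Nearest to 0 on that scale were Mrps17 (0.0044) and Mrpl43 (0.025), so which members appear unchanged depends on the scale. Mrpl36, a small zinc-binding protein with a bacterial counterpart, read 5299 and 5473 units against 6286. It was the bright member farthest above its parental values, by 0.22 as deposited (adjusted p = 0.375) and 0.97 after scaling (adjusted p = 0.032 in limma), just short of the size asked. Mrpl9 (880 and 1194 against 1145) differed by 0.15 as deposited and 0.88 after scaling.

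**Figure D2:**
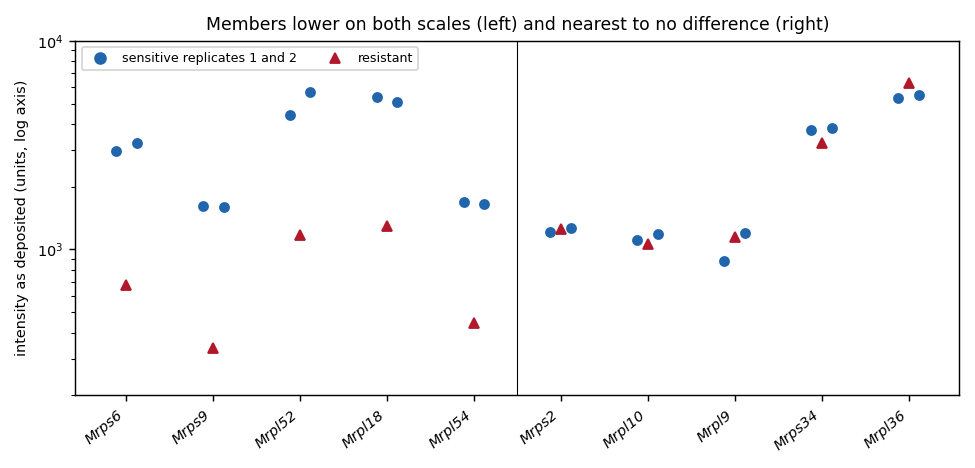
Deposited intensity (log axis) on the parental arrays (circles) and the resistant array (triangles) for the 5 members lower on both scales and the 5 members above 500 units nearest to no difference as deposited. On the left every triangle lies well below both circles, from 336 units for Mrps9 to 1299 for Mrpl18; on the right triangles lie among or close to the circles.

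The large and small subunits differed little as groups. As deposited, 16 of 43 large subunit genes (37.2%) and 12 of 24 small subunit genes were called lower, and 3 and 2 of them fell. Beside these stand 18.5% of all genes and 35.2% of genes of at least 500 units called lower. Over all genes 7.57% fell. The medians were -1.003 for the large and -1.04 for the small subunit, a gap of 0.04 log2 units, which was 0.14 after scaling, 0.18 without sensitive replicate 2 and 0.0083 without sensitive replicate 1. The quartiles overlapped almost entirely, at -1.31 to -0.55 for large and -1.52 to -0.39 for small subunit genes. Symbols do not always give the seat of a protein: Mrps18a and Mrps30 sit in the large subunit. With these moved, 17 of 45 large and 11 of 22 small subunit genes were called lower, and the gap between medians was again 0.04. These are descriptions of the lists, with no test between them.

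Lower calls were found both among proteins special to mitochondria and among those with bacterial counterparts. In the large subunit, 9 of 19 mitochondrion-specific members were called lower as deposited (median -1.04), as were 8 of 26 with a bacterial counterpart (median -0.76). In the small subunit the counts were 5 of 9 (median -1.05) and 6 of 13 (median -1.03). Lower calls as deposited made up 18.5% of all genes and 35.2% of genes of at least 500 units. The 8 of 26 (30.8%) lay below the latter share. After scaling, 16 of 19 mitochondrion-specific large subunit members were below 0, against 14 of 26 (53.8%) of the others, with medians of -0.29 and -0.09. On that scale 54.6% of all genes and 50.7% of genes of at least 500 units were below 0. These lists were drawn up from general knowledge of mitoribosome structure, and the difference between them was not tested. Some placements are doubtful. Mrps18a (called lower) was counted as mitochondrion-specific although it belongs to the S18 family. Mrpl55 (not called) was counted as having a bacterial counterpart, which was not checked. Moving either gene would bring the large subunit shares closer together. Mrps18b (not called), of the S18 family by its symbol, was counted as mitochondrion-specific in the small subunit. Moving it would take the small subunit shares further apart.

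Stalk and tunnel genes are given as examples of single regions of the ribosome. At the stalk, where translation factors dock, Mrpl11 read 2045 and 2109 units against 792 and was called lower as deposited (-1.34). Its neighbours in the stalk were Mrpl12 (3210 and 3637 against 1646, a difference of -1.03), short of a call because 1 parental array gave less than 1 log2 unit, and Mrpl10 (-0.10). After scaling the 3 stalk genes stood at -0.61, -0.29 and 0.63. Around the exit tunnel, where the new chain leaves towards the inner membrane, Mrpl39 was called lower as deposited, Mrpl44 (-1.003), Mrpl22 (-0.88) and Mrpl24 (-0.62) were not, and Mrpl45, which anchors the ribosome to the membrane, was dim at 11.2, 15.8 and 24.9 units. Mrps16 and Mrps34, both small subunit proteins, differed by -0.68 and -0.22 without a call.

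Dim probes and second probes limited some genes. Of the members, 13 averaged under 500 units, where the offset shrinks differences. Mrps25 read 79.5 units on sensitive replicate 1, 9.23 on replicate 2 and 4.67 on the resistant array. It was the only member whose parental arrays differed by at least 1 log2 unit, and its difference of -0.68 was not called. Mrps33 (17.4 and 23.7 units against 9.33) was near background everywhere. Of the members, 8 had more than 1 probe, 17 probes in all. The other probes of Mrpl48 (449 and 488 units against 733, a log2 difference of 0.60) and Mrpl41 (49.7 and 69.9 against 115, or 0.59) went the opposite way from the brighter probes that stood for these genes, at -1.18 and -1.35. The second probe of Mrpl1 (83.2 and 81.8 units against -4.67) stood at -1.55, where the brighter probe stood at -0.23, and that of Mrpl17 (49.7 and 47.5 against 6.22) at -0.81, where the brighter one stood at -0.14. Whether those probes measure other transcripts of these genes was not tested. Both probes of Mrpl51 (-1.48 and -0.99) and of Mrpl49 (-0.99 and -0.90) were lower. Mrps10 had 3 probes, at -0.39, -0.51 and -0.46, and the parental arrays disagreed on the second of them (3548 and 1634 units against 1674).

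Some mitoribosomal proteins carry other platform symbols and lie outside the rule. Of 7 such genes 6 were measured. Ptcd3 (-1.21), a small subunit pentatricopeptide repeat protein, and Chchd1 (-1.34), another small subunit protein, were called lower as deposited only, and Mrpl57 (-0.99) and Mrpl58 (-1.04), which can release stalled chains, were not called. Dap3, the GTP-binding protein of the small subunit, was dim (54.7 and 62.0 units against 62.2). Gadd45gip1, a large subunit protein also known as CRIF1, was called higher on both scales, from 48.5 and 58.0 units to 179 (1.15 as deposited, 1.69 after scaling), on a dim probe. Its call was lost with an offset of 100 and with a floor of 50 (limma adjusted p = 0.081).

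Genes that assemble the mitoribosome included members with large differences in both directions. Of 25 measured genes of assembly and rRNA modification, 9 (36.0%) were called lower as deposited (median -0.84). These 9 include 4 that fell, and 1 gene of the list rose. The lower calls as deposited compare with 18.5% of all genes and 35.2% of genes of at least 500 units. Over all genes 7.57% fell and 5.17% rose. Rbfa, which helps to mature the small subunit, read 4588 and 3953 units against 817, a log2 difference of -2.31, and -1.58 after scaling. Mettl17, a small subunit assembly factor, read 1929 and 1981 against 479 (-1.92), and Mrm3, which methylates the large rRNA, read 145 and 133 against 18.7 (-1.46). The call of Mrm3, a dim gene, was lost after quantile normalization (-0.93) and centring (-0.89). Malsu1, which keeps immature large subunits from joining the small one, read 1158 and 1184 units on the parental arrays and 1.56 on the resistant one, which is -4.57 on the log2 scale. The size of a difference from a value this close to 0 depends on the offset, and whether the spot failed was not tested. Mpv17l2, a large subunit assembly factor, moved the other way, from 1180 and 1665 units to 6166 (2.10 as deposited, 2.84 after scaling).

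Among translation factors and the makers of mitochondrial RNA, the shares called lower were near that of all genes (18.5%). Both lists held dim genes, such as Mtif3 (19.9 and 18.5 units against 9.33) and Tfam, where the offset shrinks differences. Of 13 measured translation factors, 2 (15.4%) were called lower as deposited (median -0.49) and 1 fell, Mtif2, the initiation factor that brings in the first tRNA, at 777 and 715 units against 173 (-1.84, and -1.195 after scaling). Mtif2 lost its call after quantile normalization (-1.19, limma adjusted p = 0.056). Tufm, the elongation factor that delivers tRNAs, was called lower as deposited only (-1.09), while Gfm1, the translocase, was called higher after scaling only (0.43 as deposited, 1.16 scaled). Of 16 genes of mitochondrial DNA copying, transcription and RNA handling, 3 (18.8%) were called lower as deposited and none fell. They were the RNA polymerase gene Polrmt (-1.10), the tRNA-processing nuclease gene Elac2 (-1.15) and Polg2 (-1.51), an accessory subunit of the DNA polymerase. Tfam, which packages the mitochondrial genome, differed by -0.18 on a dim probe. The 8 measured regulators of mitochondrial gene expression were split, with 4 below 0 as deposited and 3 after scaling (scaled median 0.27). Sp1, a general activator, read 926 and 973 units against 1716 (0.82) and was called higher after scaling only (1.55). As deposited, Gabpa (0.14), Esrra (0.28) and the dim Ppargc1a (0.27) were above 0 without a call. Gabpb1 (-0.97) and Ppargc1b (-0.57) were below 0 without a call. Pprc1, a coactivator of the PGC-1 family, fell from 2382 and 2476 units to 571 (-1.997, and -1.28 after scaling). Nrf1, which binds promoters of many such genes, was called lower as deposited only (171 and 171 units against 40.4, or -1.29).

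Beside the members, the respiratory chain and ATP synthase list was lower by less and the cytosolic ribosome list by least. Of 71 respiratory chain genes, 23 (32.4%) were called lower as deposited and 7 fell, with 2 that rose and a median of -0.78. Of 37 cytosolic ribosomal protein genes, 7 (18.9%) were called lower as deposited and 1 fell, with 1 that rose and a median of -0.50. Over all genes 18.5% were called lower as deposited, 7.57% fell and 5.17% rose. Of genes of at least 500 units, 35.2% were called lower as deposited. The lists were not matched for brightness, and many cytosolic genes were dim, such as Rpl19 and Rps29. After scaling, 5 respiratory chain genes were called higher and 7 lower, and the balance of the cytosolic list turned, with 6 called higher and 1 lower. The scaled medians were -0.19 and 0.10, against -0.29 for the mitochondrial ribosomal proteins. The difference between these lists was not tested.

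**Figure D3:**
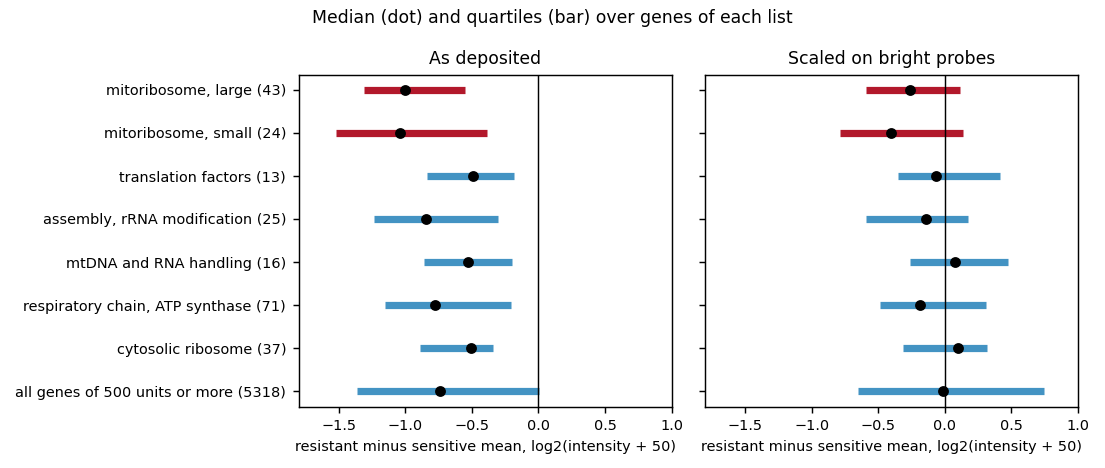
Median (dot) and quartiles (bar) of the log2 difference between resistant and parental cells over the genes of each list, as deposited (left) and after scaling on bright probes (right), with the number of genes measured. Both mitoribosomal lists have medians near -1 as deposited and stay left of 0 after scaling, with bars that cross 0.

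The scalings moved the members and the other bright genes together, as their construction makes them do. The median over all members was -1.01 as deposited, -0.29 after scaling on bright probes, -0.48 with quantile-normalized arrays and -0.44 with centred arrays. Genes of at least 500 units had medians of -0.74, -0.01, -0.21 and -0.17 in the same order. The distance between these medians, -0.27 as deposited, is therefore nearly fixed across scalings and gives no support of its own. It was -0.22 without sensitive replicate 1 and -0.28 without sensitive replicate 2.

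**Figure D4:**
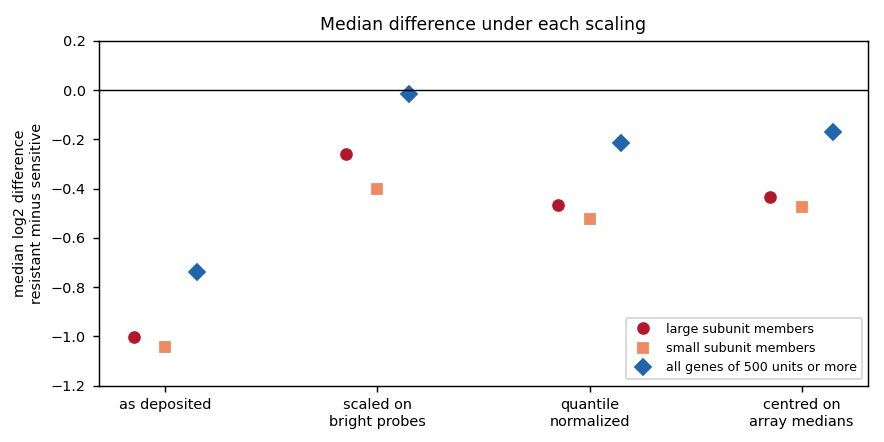
Median log2 difference of large subunit members (circles), small subunit members (squares) and all genes of at least 500 units (diamonds) under 4 scalings. The members lie below the bright genes in each, while the level of all 3 moves with the scaling.

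Promoters of the members carried a few letter patterns more often than promoters at large. RefSeq windows of 300 bases on GRCm38.p6 (250 before to 50 after the start) were found for 58 of the 67 genes, and 8 patterns were searched on both strands. CCGGAAG, the core bound by ETS factors such as GABP, was in the windows of 21 of 58 members (36.2%), against 9.93% of all 27025 genes with a window and 14.3% of those on the array. AAGATGGC, bound by YY1, was in 11 (19.0%, against 3.19% of all genes and 3.98% of array genes). The NRF1 pattern (GCGCA, any base, then GCGC) was in 8 (13.8%, against 5.19% and 8.11%). GGGCGG, bound by Sp factors, was in 46.6% of members, 38.2% of all genes and 55.8% of array genes. AAGGTCA (5.17% against 5.38%), CACGTG (6.90% against 8.09%), CCAAT (41.4% against 41.1%) and TATAAA (8.62% against 15.7%) had shares close to or below those of all genes.

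Differences were set beside the patterns without a test. The median log2 difference was -0.90 over the 21 members with CCGGAAG and -0.95 over the 37 without it, with 9 and 12 called lower as deposited. For AAGATGGC the medians were -1.04 and -0.88. The gap was wider for CCAAT, at -1.05 over the 24 members with it (12 called lower) and -0.83 over the 34 without it (9 called lower). For CACGTG the medians were -1.18 over 4 members and -0.94 over 54. Of the 8 patterns, CCAAT and CACGTG gave the widest gaps. For the NRF1 pattern the medians were -1.02 and -0.91, with 2 of 8 and 19 of 50 called lower. Of all genes 18.5% were called lower as deposited, and 35.2% of genes of at least 500 units. Upstream sequence is shown for a member that fell with the ETS pattern (Mrpl52), a member with the same pattern called lower as deposited (Mrps18a), a member that fell without an ETS or YY1 pattern in its window (Mrps6) and the bright member that read highest against its parent (Mrpl36). Each is the 120 bases before the start, read 5′ to 3′ on the gene's strand, with ETS or YY1 patterns on either strand in capitals:
Mrpl52, chr14:54426789-54426908, plus strand: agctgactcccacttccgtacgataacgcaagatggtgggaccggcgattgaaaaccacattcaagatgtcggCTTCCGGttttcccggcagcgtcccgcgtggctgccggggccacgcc
Mrps18a, chr17:46110884-46111003, plus strand: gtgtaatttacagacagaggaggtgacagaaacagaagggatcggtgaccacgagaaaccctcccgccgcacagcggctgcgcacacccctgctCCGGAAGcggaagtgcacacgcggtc
Mrps6, chr16:92058216-92058335, plus strand: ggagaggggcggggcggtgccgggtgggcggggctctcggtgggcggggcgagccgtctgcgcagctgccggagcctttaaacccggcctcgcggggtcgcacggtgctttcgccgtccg
Mrpl36, chr13:73330889-73331008, plus strand: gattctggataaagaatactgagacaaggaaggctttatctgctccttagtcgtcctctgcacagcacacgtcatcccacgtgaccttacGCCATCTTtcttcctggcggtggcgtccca
In Mrpl52 and Mrps18a the capitals mark the ETS core, 47 and 26 bases before the start. Outside the stretch shown, Mrpl52 held another ETS core 2 bases past the start, and Mrps18a the YY1 pattern 11 bases past it. In Mrpl36 the capitals mark the YY1 pattern on the opposite strand, 30 bases before the start, in the member that was not lower.

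Several members share a start region with a gene on the opposite strand. Of the 58 members with a window, 16 had a divergent gene starting within 300 bases. Mrpl46 and Mrps11 are such a pair, with starts 42 bases apart. Mrpl46 was called lower as deposited (-1.54) and Mrps11 (473 and 438 units against 198) stood at -1.03 without a call. The 41 bases between them, which hold no ETS or YY1 pattern, read on the strand of Mrpl46:
Mrpl46 and Mrps11, chr7:78783090-78783130, minus strand: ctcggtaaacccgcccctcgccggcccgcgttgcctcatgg
Of the members, 12 had a measured divergent partner that was not itself a member. Of those partners 5 were called lower as deposited, 2 of them beside a member called lower, while 4 of the 12 members were. The same rule called 18.5% of all genes and 35.2% of genes of at least 500 units lower. Klc4 (-1.13), Ighmbp2 (-1.22) and Eme1 (-1.22) were called lower beside Mrpl2 (-0.89), Mrpl21 (-0.22) and Mrpl27 (-1.01), which were not. Mrpl27 was short of a call because sensitive replicate 1 gave -0.95. Mrpl21 was dim at 13.7, 29.0 and 10.9 units, where the offset shrinks differences. Mrps12 (-1.49) and Sars2, the mitochondrial seryl-tRNA synthetase (1342 and 1326 units against 378, or -1.69), were both called lower as deposited, as were Mrps7 and Gga3 (-2.34), a sorting adaptor gene that also fell. Others parted: Mrpl18 fell while Tcp1, a chaperonin subunit gene that starts 238 bases away, read 2284 and 2444 units against 2002 (-0.23). Mrpl43 (-0.71) and Twnk, the mitochondrial DNA helicase gene whose start is 116 bases away, differed in sign as deposited but not after scaling (Mrpl43 0.025), with Twnk at 440 and 611 units against 1045 (0.95 as deposited, and called higher after scaling at 1.66).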

How the data were processed

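Total RNA was amplified and labelled with Cy5 for hybridisation in 1 colour, per the labels' protocols. The authors deposited 1 intensity per probe and array, on a linear scale with some values below 0. For image software, background and scaling, the steps were not given in the sources used here. Of 26423 probes, 20377 had 1 platform symbol and 6046 none. Symbols were updated through the GRCm38.p6 gene table: 18213 were current, 2126 older and 38 matched no gene. Promoter windows came from RefSeq on the same build, while the build of the array's design was not stated. The brightest probe stood for a gene. limma 3.58.1 in R 4.3.3 (lmFit, eBayes with a trend) was fitted to log2(intensity + 50) of 17742 genes, with 1 residual degree of freedom per gene and a prior of 11.0 (2.08 after scaling on bright probes). Scaling divided each array by the median ratio of bright probes to their mean over arrays. The fit was tested on simulated data, with all arrays drawn from the parental levels and spread and no array-wide shift. That test therefore cannot show whether the resistant array varies like the parental arrays. Number of arrays limits precision. Tables and figures were made in Python 3.11.15 with pandas 2.3.3 and matplotlib 3.10.9. Alternatives were other scalings, offsets, filters on dim genes, probe rules, variance models, sizes and leaving out each parental array.

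Members called on both scales, the largest calls made as deposited only, those nearest to no difference, and dim or discordant probes were named by rule; stalk, tunnel and promoter examples were chosen after their values were seen. Members and lists were chosen with earlier results of these data known.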

Additional observations from a re-analysis of the deposited data

How the results depend on the processing

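No paired analysis was possible because the resistant group has 1 array with no replicate number. No member was called higher under any alternative that was run. The 28 members called lower as deposited (16 large, 12 small subunit) became 5 (3 and 2) after scaling on bright probes, 7 (3 and 4) after quantile normalization, 8 (4 and 4) after centring on array medians and 0 (0 and 0) with a floor of 50. With a size of 0.6 they were 46 (30 large), with a size of 2 they were 2 (0 and 2), and on the adjusted p alone 48 (32 large). Without 1 parental array, on size alone and with no test, 33 to 34 members (19 to 22 large, 12 to 14 small) were lower. The large subunit median was -0.26, -0.47 and -0.44 under the 3 scalings, -0.95 with an offset of 100, -0.92 with the mean of a gene's probes and -1.01 to -0.95 without 1 parental array. The small subunit median was -0.40, -0.52 and -0.47 under the scalings, -1.16 and -0.96 with offsets of 16 and 100, -1.17 with the floor and -1.12 to -1.01 without 1 parental array. The gap between subunits ran from 0.0083 to 0.18 without 1 parental array. Over all genes, 3284 lower and 928 higher calls (22.0% higher) became 1344 and 1659 (55.2%) after scaling, 996 and 1204 (54.7%) after quantile normalization, 1373 and 1600 (53.8%) after centring and 26 and 133 (83.6%) with the floor, whose prior degrees of freedom were 0.74; with sizes of 0.6 and 2 and on the adjusted p alone, 5511, 734 and 6935 genes were lower. No call of a member changed sign. With the floor, differences of the 5 members that fell ran from -2.26 (Mrps9) to -1.91 (Mrpl54), at limma adjusted p from 0.061 to 0.099. Why the floor ends the calls was not tested.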
